A study of Mus musculus with 48 samples.

Results

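Transcript loss was compared between fibroblasts with and without tristetraprolin (TTP) over the window from 30 to 120 min of actinomycin D, an inhibitor of transcription. For each of 45037 probe sets, a straight line of log2 signal on hours was fitted in each of the WT and KO cells, and the KO slope minus the WT slope was tested. These fits used 39 of the 48 arrays of the study, namely all arrays at 30, 60, 90 and 120 min, and left out the 9 arrays at 0 min. The level of the starting arrays therefore did not enter the slopes, nor did a lag in the uptake of the drug that was over by 30 min. A longer lag could still enter, and was not tested. A slope difference above 0 was read as a slower fall in KO, or none, where WT fell. A difference below 0 was read as a faster fall in KO where KO fell.

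The WT (TTP +/+) and KO (TTP -/-) fibroblast lines came from littermate embryos (E14.5), bred from TTP +/- parents of strain 129/B6, and the labels describe what appears to be 1 line of each genotype. With 1 line each, the effect of TTP cannot be told apart from other differences between these lines. Cells of both lines were kept in 0.5% serum for 16 h and stimulated with 10% serum for 90 min before actinomycin D was added, so that serum and drug are shared by all groups. The series text gives the drug at 5 ug/ml, whereas the sample labels give 0.5 ug/ml, so the dose is unsettled here. Each RNA sample came from 3 combined dishes of 100 mm. The work was done as 5 experiments on different days, and each of the 8 groups of line and time holds n = 5 arrays except KO at 60 min, which holds n = 4 (no replicate 4). The main fit treated the arrays as independent, so its p-values rest on the scatter of single arrays about the fitted lines. That scatter comes from repeats of 1 line each, and does not measure the spread between animals.

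TTP, encoded by Zfp36, is a zinc finger protein that binds AU-rich elements in the 3' untranslated region of messenger RNA and recruits the deadenylation machinery, which shortens the poly(A) tail and leads to decay of the transcript. Many of its known targets are short-lived messages of immediate-early genes, cytokines and growth factors that serum induces in fibroblasts. When transcription is stopped, the signal of such a message falls with the rate of its decay. The scaling behind the deposited values is not stated. If arrays were scaled to a common average, a slope above 0 could be a fall smaller than that average, and it need not be new RNA.

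The array medians lay between 8.47 and 8.55 and the 5th percentiles between 8.02 and 8.13. The highest 5th percentile, 8.13, was taken as the floor, at and under which a signal has no order. The highest signals lay between 13.28 and 13.43. Of 19 fibroblast markers, 17 had a mean signal more than 1 log2 unit above that floor, against 0 of 7 epithelial and 0 of 6 endothelial markers. The others above it were 1 of 8 muscle markers (Acta1), 1 of 7 macrophage and blood markers (Cd14), 2 of 8 neural markers (Tubb3 and Map2) and 1 of 5 cartilage and bone markers (Sox9). The mean level of the fibroblast list lay between 11.06 and 11.23 over the WT arrays and between 11.05 and 11.27 over the KO arrays. No member of the marker lists was called slower or faster, against 36 slower and 13 faster of all 18193 genes. At that share, lists of this size would hold few calls or none. Most markers of the other cell types also lay too near the floor for a fall to be seen.

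A pair of WT arrays stood apart from the others. The standard deviation of an array from its group mean was 0.150 for WT at 30 min in experiment 3 and 0.135 for WT at 120 min in experiment 1, against 0.0696 to 0.125 for the other 37 arrays. These arrays lie at the ends of the fitted lines. Without the first, 101 probe sets were called slower and 46 faster, in place of 48 and 27, and without the second, 29 and 22. Without both, there were 66 and 30, and 42 of the 48 and 24 of the 27 were still called. Arrays of experiments 4 and 5 also lay apart on the first principal component, between -15.4 and -3.28, from those of experiments 1 to 3, between -2.53 and 18.4.

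In WT, 2897 probe sets fell over the window (6.43% of those tested) and 1076 rose (2.39%). In KO, 2240 fell (4.97%) and 1303 rose (2.89%). The difference between the slopes passed the test in far fewer. It was above 0 in 48 probe sets (0.107%), all of which also fell in WT and were called slower in KO, 0.107% of those tested. It was below 0 in 28 (0.0622%), of which 27 fell in KO and were called faster there (0.06%). The remaining 1 has no gene symbol, with slopes of 0.17 in WT and -0.0041 in KO. With the experiment as a replicate block, 1 offset per experiment shared by both lines, 139 probe sets were slower and 51 faster. All of the 48 and the 27 were among them. The block left slope differences nearly unchanged (Ier3 0.76 without and 0.77 with it, Irx3 0.83 and 0.84). It mainly took scatter between experiments out of the error, so the kept calls are no separate support. In experiments 1 to 3 alone there were 21 and 13, in experiments 4 and 5 alone 34 and 27, and 7 slower and 9 faster ones were called in both. Leaving out 1 experiment gave fewer calls in every case: 10 slower and 11 faster without experiment 1, 26 and 19 without experiment 2, 28 and 14 without experiment 3, 24 and 14 without experiment 4, and 21 and 18 without experiment 5. With 1 probe set per gene, the one with the highest mean, 36 genes were slower and 13 faster. The KO fall itself passed the threshold in 16 of the 36 slower genes.

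The level at 30 min divided these genes. At that time 3430 probe sets were lower in KO (7.62%) and 3998 higher (8.88%). At 120 min 5711 were lower (12.7%) and 5202 higher (11.6%). Of the 36 slower genes, 24 were lower in KO at 30 min, 5 were higher and 7 did not differ past the threshold. The gap between the lines closed from 30 to 120 min in the 24 and opened in the other 12. Of the 13 faster genes, all 13 were higher in KO at 30 min, and all 13 gaps closed. The choice of these genes by slope over the same arrays favours such closing and opening. Given the level at 30 min, the gap changes are therefore no separate result. A lower level at 30 min also lies nearer to the floor, where falls are compressed. At 30 min the lower line was within 0.5 of the floor in 10 of the 36 slower and in 7 of the 13 faster genes.

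**Figure D1:**
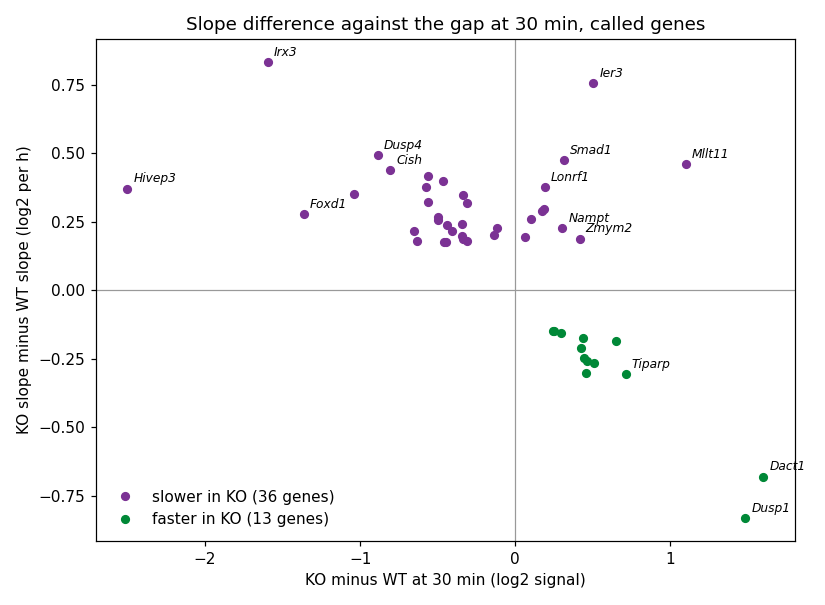
Each point is 1 called gene, 36 slower and 13 faster. The x axis gives KO minus WT at 30 min in log2 signal, and the y axis the KO slope minus the WT slope in log2 per h. The 13 faster genes all lie at the lower right, higher in KO at 30 min, and the 36 slower genes lie on both sides of 0, 24 of them lower in KO at 30 min.

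Among the 12 slower genes with no lower start in KO, Ier3 changed most. Ier3 is an immediate-early gene whose product acts in cell survival and in feedback on ERK and NF-kappaB signalling, and it is a reported TTP target. At 30 min its log2 signal in the 5 WT arrays was 11.87, 11.88, 11.85, 11.40 and 11.62, and in the 5 KO arrays 12.20, 12.18, 12.20, 12.28 and 12.27. At 120 min the WT arrays gave 9.83, 9.94, 10.21, 9.62 and 10.08, and the KO arrays 11.54, 11.52, 11.49, 11.72 and 11.67. Every KO array lay above every WT array at both times, and the distance was wider at 120 min.

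Ier3 had a WT slope of -1.18 ± 0.099 and a KO slope of -0.42 ± 0.10 log2 per h (SE), so that its fitted signal halved in 50.8 min in WT and in 141.6 min in the KO line. The difference was 0.76 ± 0.14 (SE; limma adjusted p = 0.00562) and had this sign in 5 of 5 experiments, with WT slopes between -1.37 and -1.03 and KO slopes between -0.47 and -0.36. Signal in KO was 1.42-fold that in WT at 30 min and 3.14-fold at 120 min. The fall in WT was not straight. The WT mean changed by -1.06 log2 from 30 to 60 min, by -0.54 from 60 to 90 min and by -0.19 from 90 to 120 min, and this bend passed the test (0.88, adjusted p = 0.0137), as bends did for 85 probe sets in WT (0.189%) and 42 in KO (0.0933%). In KO the changes were -0.17, -0.21 and -0.26. The lines thus parted mostly between 30 and 60 min, by 0.89 ± 0.18 (SE), and between 90 and 120 min the difference in change was -0.071 ± 0.18. That difference from 30 to 60 min did not pass the test by itself (adjusted p = 0.326). Fitted from 60 to 120 min only, the slope difference was 0.26 (adjusted p = 0.526). It was 0.72 without experiment 1 (adjusted p = 0.194) and 0.74 without experiment 2 (adjusted p = 0.0883). Experiments 1 to 3 alone gave 0.79 (adjusted p = 0.000416), and experiments 4 and 5 alone gave 0.71 (adjusted p = 0.999).

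**Figure D2:**
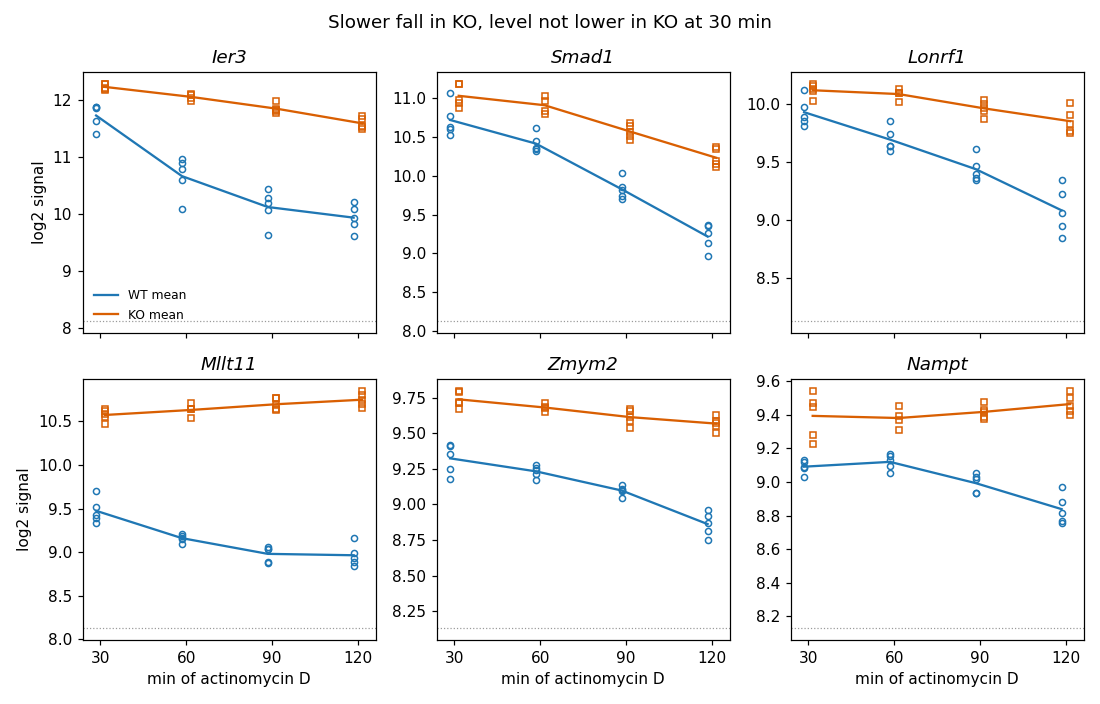
Log2 signal against min of actinomycin D for 6 genes called slower in KO and not lower there at 30 min. Open symbols are single arrays (circles WT, squares KO, set slightly apart), lines join group means, and the dotted line is the floor of 8.13. The KO means lie above the WT means at all 4 times, and Ier3 in WT loses most of its signal between 30 and 60 min.

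Smad1, which carries signals of bone morphogenetic proteins to the nucleus, had the next highest difference of this kind. Its log2 signal at 30 min was 10.63, 11.07, 10.53, 10.60 and 10.77 in WT and 10.97, 11.19, 11.19, 10.94 and 10.88 in KO, and these ranges overlap. At 120 min it was 8.96, 9.36, 9.14, 9.26 and 9.37 in WT and 10.35, 10.37, 10.11, 10.19 and 10.15 in KO, with no overlap. Slopes were -1.02 ± 0.059 and -0.54 ± 0.059 (SE), or halving times of 58.8 and 110.3 min. The difference was 0.48 ± 0.084 (SE; adjusted p = 0.00291), and KO was 1.24-fold higher at 30 min and 2.02-fold higher at 120 min.

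In contrast to Ier3, Smad1 had a change in WT of -0.31 from 30 to 60 min and of -0.61 from 90 to 120 min, and this bend did not pass (adjusted p = 0.46). From 60 to 120 min only, its slope difference was 0.52 (adjusted p = 0.105). The call ended without experiment 1 (0.43, adjusted p = 0.0888) and was not made in experiments 1 to 3 alone (0.51, adjusted p = 0.121), while it was made in experiments 4 and 5 (0.44, adjusted p = 0.00235). Its 3 probe sets disagree. The others gave a difference of 0.39 (adjusted p = 0.0533) and of -0.035 (adjusted p = 0.994).

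Mllt11, first known as a fusion partner of the MLL gene in leukaemia, had slopes of opposite sign. Its WT slope was -0.34 ± 0.041 (SE), and its KO slope of 0.12 ± 0.042 was not past the threshold (adjusted p = 0.0753). The 5 WT arrays lay between 9.33 and 9.70 at 30 min and between 8.84 and 9.17 at 120 min, and the 5 KO arrays between 10.47 and 10.64 and then between 10.65 and 10.85. The difference was 0.46 ± 0.059 (SE; adjusted p = 8.62e-06), and KO was 2.14-fold higher at 30 min and 3.44-fold higher at 120 min. The WT slopes of single experiments ran from -0.41 to -0.23 and the KO slopes from 0.044 to 0.24, on opposite sides of 0. Its other probe set gave 0.068 (adjusted p = 0.985).

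Lonrf1, which encodes a RING finger protein with a LON protease domain, began at 9.93 ± 0.12 in WT and 10.12 ± 0.057 in KO (SD, n = 5), a gap of 0.19 that did not pass (adjusted p = 0.0619). At 120 min the WT arrays gave 8.85, 9.34, 8.95, 9.06 and 9.23, and the KO arrays 9.91, 10.01, 9.77, 9.75 and 9.83. The ranges no longer overlapped, and KO was 1.71-fold higher. The slope difference was 0.38 ± 0.062 (SE; adjusted p = 0.000864), and the signal halved in 107.2 min in WT against 327 min in KO.

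Maml1, a coactivator of Notch, had a difference of 0.30 ± 0.065 (SE; adjusted p = 0.0317), and at 120 min KO signal was 1.57-fold that of WT. Its call ended without the WT 120 min array of experiment 1 (0.25, adjusted p = 0.0818), without experiment 1, 3, 4 or 5 (adjusted p = 0.517, 0.0639, 0.222 and 0.125) and within either set of experiments. Its 2 other probe sets gave 0.11 and 0.0012, neither past the threshold.

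The other 7 genes of the 12, Ndel1, B4galt3, Mphosph10, Nampt, Twist2, Cyth1 and Zmym2, were named after their values were seen. They had slope differences between 0.19 and 0.29. Zmym2, a zinc finger protein, and Nampt, the enzyme of the NAD salvage pathway, were higher in KO at 30 min. For Nampt the WT arrays lay between 9.03 and 9.13 at 30 min and between 8.76 and 8.97 at 120 min, and the KO arrays between 9.23 and 9.54 and then between 9.40 and 9.54. Its difference was 0.23 ± 0.046 (SE; adjusted p = 0.0142) and was called also from 60 to 120 min only. Zmym2 had a difference of 0.19 ± 0.040 (SE; adjusted p = 0.0242), and its KO signal at 120 min was 1.63-fold that of WT. Ndel1, a partner of the motor protein dynein, had 0.29 ± 0.062 (SE; adjusted p = 0.0242). It was at 10.73 in WT and 10.90 in KO at 30 min, and at 10.24 and 10.83 at 120 min.

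B4galt3, a galactosyltransferase of the Golgi, kept a KO level between 9.36 and 9.38 at all 4 times and went from 9.27 to 8.89 in WT. Cyth1, an exchange factor for ARF GTPases, likewise stayed between 9.21 and 9.26 in KO and went from 9.18 to 8.89 in WT. Twist2, a transcription factor of mesenchymal cells, and Mphosph10, a component of the machinery that processes ribosomal RNA, had lower KO means at 30 min that did not pass (gaps of -0.14 and -0.12). Their KO signals were higher than WT at 120 min by 0.17 (adjusted p = 0.0102) and 0.22 (adjusted p = 0.0012).

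All 12 of these genes were higher in KO at 120 min. Over the 8 group means, the slower genes most like Ier3 were B4galt3 (Pearson r = 0.97), Lonrf1 (0.96), Zmym2 (0.95), Cyth1 (0.95) and Maml1 (0.94). This likeness is a description over 8 means that share arrays.

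The 24 slower genes that were lower in KO at 30 min had another shape: a high WT signal fell towards a low KO signal. Irx3, a homeobox transcription factor, had the highest slope difference of all called genes. At 30 min the WT arrays gave 10.15, 10.16, 9.86, 9.79 and 9.76 and the KO arrays 8.37, 8.38, 8.36, 8.33 and 8.32. At 120 min they gave 8.56, 8.71, 8.62, 8.53 and 8.59 in WT and 8.29, 8.20, 8.22, 8.23 and 8.17 in KO. The KO arrays lay below all WT arrays at both times and close to the floor throughout. The WT slope was -0.92 ± 0.059 and the KO slope -0.085 ± 0.059 (SE), the latter not past the threshold (adjusted p = 0.542), and the difference was 0.83 ± 0.084 (SE; adjusted p = 4.05e-08). With KO so near the floor, a rate of loss there was not measured.

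Dusp4, a phosphatase that inactivates ERK in the nucleus, was at 9.60 ± 0.13 in WT and 8.71 ± 0.12 in KO at 30 min (SD, n = 5), and at 8.66 ± 0.068 and 8.51 ± 0.070 at 120 min. Its WT signal changed by -0.55 from 30 to 60 min and by -0.063 from 90 to 120 min, a bend past the threshold (0.49, adjusted p = 0.0016). The slope difference was 0.49 ± 0.070 (SE; adjusted p = 7.31e-05). Cish, an inhibitor of cytokine receptor signalling, went from 9.39 ± 0.20 to 8.50 ± 0.076 in WT and from 8.58 ± 0.13 to 8.37 ± 0.040 in KO (SD, n = 5). Its difference of 0.44 ± 0.077 (SE; adjusted p = 0.00337) was lost without experiment 1 (adjusted p = 0.148) or 3 (adjusted p = 0.0696) and after background subtraction (0.88, adjusted p = 0.093).

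Other genes of this kind began well above the floor in both lines, and fell past the threshold in both. Socs5, a suppressor of cytokine signalling of the same family as Cish, is the clearest of them. Its WT arrays gave 10.98, 10.87, 10.85, 10.94 and 10.81 at 30 min, and its KO arrays 10.38, 10.41, 10.39, 10.28 and 10.19, all below WT. At 120 min the WT arrays gave 9.28, 9.81, 9.53, 9.78 and 9.73 and the KO arrays 9.78, 9.80, 9.59, 9.71 and 9.60, which overlap.

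Slopes of Socs5 were -0.86 ± 0.047 and -0.44 ± 0.048 (SE), or halving times of 69.9 and 135.3 min. The difference was 0.42 ± 0.067 (SE; adjusted p = 0.000741), and its second probe set was also called (0.34, adjusted p = 0.00441). It was called with each experiment left out in turn and within both sets of experiments.

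Cnksr3, a scaffold protein of Ras signalling, halved in 72.2 min in WT cells against 138.7 min in KO cells (difference 0.40 ± 0.073, SE; adjusted p = 0.00441). Rab9, a small GTPase of late endosomes, halved in 87.8 and 177.9 min (0.35 ± 0.070; adjusted p = 0.0145). Tle4, a corepressor of the Groucho family, halved in 89.0 and 167.9 min (0.32 ± 0.058; adjusted p = 0.00441). Ppp1r12b, a targeting subunit of myosin phosphatase, halved in 82.1 and 168.4 min (0.37 ± 0.080; adjusted p = 0.0242). The gap at 120 min did not pass in any of these 4 (adjusted p = 0.0663 to 0.921). The call of Ppp1r12b ended without any 1 of the 5 experiments (adjusted p = 0.0537 to 0.271), without the WT 120 min array of experiment 1 (0.37, adjusted p = 0.0582) and without both arrays that stand apart (0.37, adjusted p = 0.0519), and its 3 other probe sets gave -0.066 to -0.017. The other probe sets of Tle4 gave 0.099 (adjusted p = 0.977) and 0.034 (adjusted p = 0.985).

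**Figure D3:**
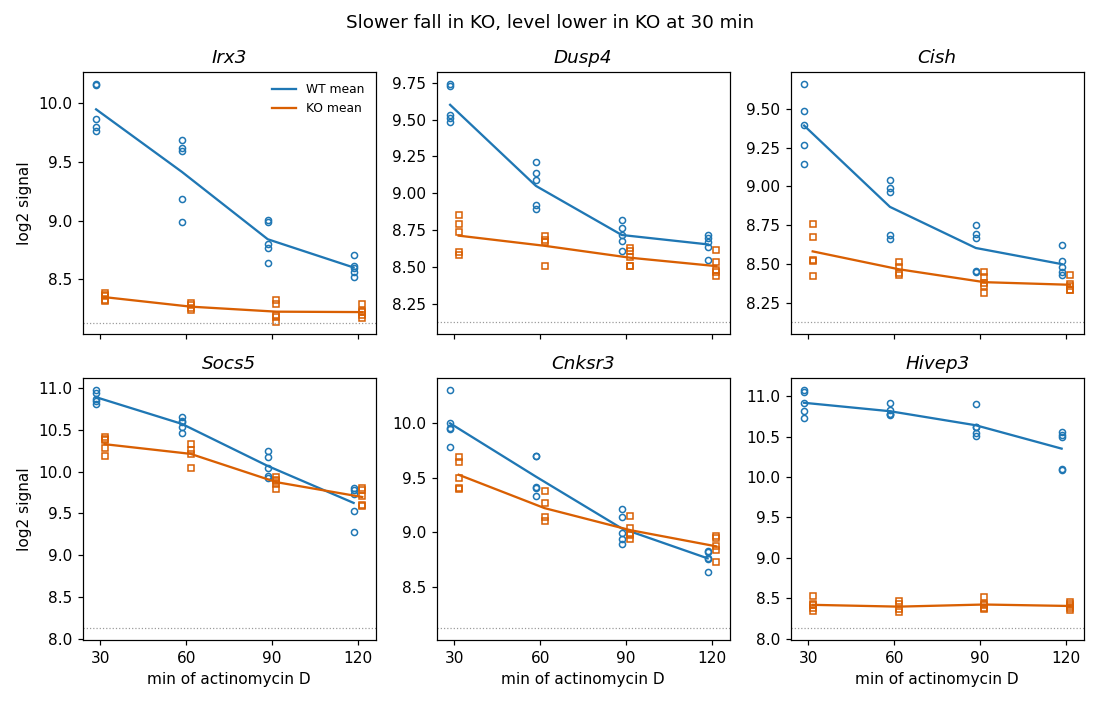
Log2 signal against min of actinomycin D for 6 genes called slower in KO and lower there at 30 min, drawn as single arrays (circles WT, squares KO) with lines through the group means and the floor of 8.13 dotted. KO starts below WT in each, and the KO signals of Irx3 and Hivep3 are nearly flat close to the floor.

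Ppp1r12a, the paralogous targeting subunit, had a difference of 0.32 ± 0.061 (SE; adjusted p = 0.00648), and its 3 other probe sets gave 0.045 to 0.23, none past the threshold. Its WT signal changed by -0.40 between 90 and 120 min and by -0.14 between 30 and 60 min. Hivep3 and Lmcd1 were flat in KO, where both lay within 0.5 of the floor. Hivep3, a zinc finger transcription factor, was at 8.40 to 8.42 in KO at all 4 times and went from 10.92 ± 0.15 to 10.35 ± 0.24 in WT (SD, n = 5). Lmcd1, a LIM domain cofactor, was at 8.30 to 8.36 in KO and went from 9.35 ± 0.095 to 8.89 ± 0.051 in WT. Their slope differences were 0.37 ± 0.067 (SE; adjusted p = 0.00426) and 0.35 ± 0.048 (SE; adjusted p = 4.11e-05). With background subtracted, Hivep3 was no longer called (0.46, adjusted p = 0.324), and its 4 other probe sets gave -0.063 to 0.065, none past the threshold.

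The remaining 13 genes of this kind, also named after their values were seen, had slope differences between 0.18 and 0.28. They include 4 developmental transcription factors at a KO level within 0.5 of the floor: Foxd1 (0.28), Dmrta2 (0.22), Vax2 (0.18) and Irx2 (0.18). They also include the sphingosine-1-phosphate receptor S1pr2 (0.27), the cochaperone Bag5 (0.25), the autophagy factor Nrbf2 (0.24), the heat shock protein Hspa1b (0.24), the actin regulator Mtss1 (0.22) and the clock gene Per2 (0.18). Sh3bp4 (0.20), the tRNA deaminase subunit Adat2 (0.19) and Lnx2 (0.18) complete them. The KO means of Mtss1 (8.543 to 8.615) and Lnx2 (8.49 to 8.52) also lay within 0.5 of the floor over the window. Hspa1b has a near-identical copy, Hspa1a, and its signal may come from either. The signal of S1pr2 halved in 85.4 min (WT) and 137.8 min (KO), and that of Bag5 in 115.2 and 225.2 min. Irx2 is the 1 gene of the 36 in which the slopes of single experiments overlapped between the lines.

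Among faster genes, Dusp1 and Dact1 had the lowest slope differences. Dusp1 is a phosphatase that inactivates p38 and JNK, and itself an immediate-early gene. Its KO arrays gave 10.06, 10.05, 10.13, 10.75 and 10.48 at 30 min and 8.59, 8.64, 8.60, 8.70 and 8.62 at 120 min. Its WT arrays gave 8.93, 8.94, 8.69, 8.67 and 8.85 at 30 min and 8.35, 8.41, 8.44, 8.42 and 8.42 at 120 min. All KO arrays lay above all WT arrays at both times, by far less at 120 min.

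The slope of Dusp1 was -1.08 ± 0.11 in KO and -0.25 ± 0.11 in WT (SE), the latter not past the threshold (adjusted p = 0.154). The difference was -0.83 ± 0.15 (SE; adjusted p = 0.00441). From 30 to 60 min KO changed by -1.28 and WT by -0.39, a difference of -0.89 ± 0.12 (SE) that passed the test by itself (adjusted p = 0.000506). It was the 1 probe set to do so in that direction (0.00222%). The bend in KO was 1.21 (adjusted p = 1.29e-07). WT signals from 60 min on lay between 8.40 and 8.43 in the mean, near the floor. After background subtraction the difference was -1.04 (adjusted p = 0.231). The call ended without experiment 3 (-0.83, adjusted p = 0.0532) or 5 (-0.80, adjusted p = 0.0537), and neither set of experiments alone gave a call, with -0.67 for 1 to 3 (adjusted p = 0.195) and -1.09 for 4 and 5 (adjusted p = 0.267).

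Dact1, an antagonist of Wnt signalling that binds Dishevelled, went from 10.06 ± 0.16 to 8.84 ± 0.12 in KO and from 8.46 ± 0.086 to 8.24 ± 0.11 in WT (SD, n = 5). The KO arrays gave 10.17, 10.29, 9.99, 9.90 and 9.94 at 30 min and 8.95, 8.98, 8.71, 8.80 and 8.75 at 120 min, with the WT arrays between 8.41 and 8.61 and then between 8.12 and 8.41. KO halved in 71.3 min, and the WT slope was -0.16 ± 0.048 (SE). The difference was -0.68 ± 0.069 (SE; adjusted p = 3.92e-08), was called with each experiment left out and within both sets of experiments, and ended when background was subtracted (-0.55, adjusted p = 0.775). Its KO signal changed by -0.28, -0.57 and -0.37 in successive intervals, and was called also from 60 to 120 min only.

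**Figure D4:**
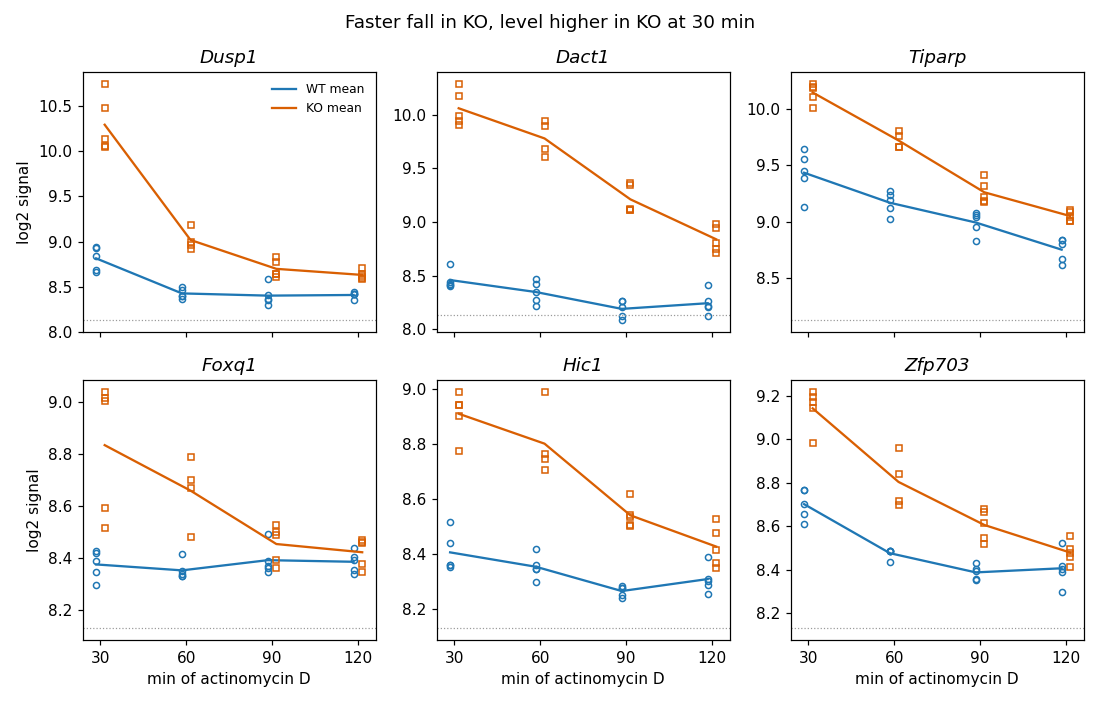
Log2 signal against min of actinomycin D for 6 genes called faster in KO, drawn as single arrays (circles WT, squares KO) with lines through the group means and the floor of 8.13 dotted. KO starts above WT in each and closes on it by 120 min, and Tiparp is the gene of these 6 with the highest WT mean at 30 min, 9.44.

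Tiparp, a member of the poly(ADP-ribose) polymerase family induced through the aryl hydrocarbon receptor, had the steepest WT slope of the named faster genes. Its WT arrays gave 9.55, 9.65, 9.14, 9.39 and 9.45 at 30 min and 8.62, 8.84, 8.67, 8.80 and 8.84 at 120 min, and its KO arrays 10.20, 10.19, 10.22, 10.01 and 10.11 and then 9.01, 9.10, 9.09, 9.05 and 9.01. The KO arrays lay above the WT arrays at both times. Its signal halved in 135.2 min (WT) and 80.1 min (KO; difference -0.31 ± 0.063, SE; adjusted p = 0.0169). Its other probe sets gave -0.30 and -0.42, neither past the threshold. The call ended without any 1 of the 5 experiments (adjusted p = 0.0507 to 0.152) and after background subtraction (-0.25, adjusted p = 1).

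The remaining named genes of this group had WT means between 8.32 (Tmem74) and 8.93 (Cdk5r1) at 30 min. Foxq1, a forkhead factor, had a difference of -0.30 ± 0.059 (SE; adjusted p = 0.0108), with KO arrays at 30 min of 9.04, 9.01, 9.02, 8.52 and 8.59 and WT arrays between 8.30 and 8.43. The KO arrays of experiments 4 and 5 were the lower ones, whereas for Tmem74 those 2 were the higher ones, at 9.01 and 9.07 against 8.52 to 8.68. Hic1, a transcriptional repressor, had -0.26 ± 0.040 (SE; adjusted p = 0.000191) and was called with each experiment left out and within both sets of experiments. Tmem74 (-0.26), Zfp703 (-0.25), Cdk5r1 (-0.21), Ccser1 (-0.18) and the chromatin reader Ing2 (-0.17) completed the 10 with the lowest differences. Other probe sets of Foxq1 (-0.39), Tmem74 (-0.20), Ccser1 (-0.047) and Zfp703 (-0.021 and -0.014) did not pass (adjusted p = 0.082, 0.065, 0.983, 0.994 and 0.994). Of the 3 other probe sets of Cdk5r1, 1 was called (-0.25, adjusted p = 0.0373), and those with -0.098 and -0.10 were not (adjusted p = 0.606 and 0.983). The other 3 faster genes, named after their values were seen, were the poly(A) polymerase Tent5c (-0.16), the kinase Tec (-0.15) and Mob3b (-0.15), each with a WT mean within 0.5 of the floor at 30 min. The WT fall passed the test in 4 of the 13 genes: Dact1, Tiparp, Zfp703 and Ing2. After background subtraction, the call stood for Foxq1 and ended for the other 9 of the 10.

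Calls of the other named genes also depended on single experiments (limma adjusted p in brackets). Without experiment 1 they ended for Cnksr3 (0.194), Hivep3 (0.277), Rab9 (0.369), Ppp1r12a (0.148), Tle4 (0.122), Foxq1 (0.134), Tmem74 (0.148), Zfp703 (0.0769), Cdk5r1 (0.0884), Ccser1 (0.0769) and Ing2 (0.295). Without experiment 2 they ended for Rab9 (0.268), Foxq1 (0.187), Zfp703 (0.151), Cdk5r1 (0.141), Ccser1 (0.365) and Ing2 (0.119). Without experiment 3 they ended for Foxq1 (0.0995), Tmem74 (0.0693), Zfp703 (0.0663), Cdk5r1 (0.111), Ccser1 (0.0639) and Ing2 (0.189). Without experiment 4 they ended for Tmem74 (0.127), Cdk5r1 (0.0558), Ccser1 (0.0748) and Ing2 (0.166). Without experiment 5 they ended for Hivep3 (0.0583), Ppp1r12a (0.0838), Tle4 (0.0516), Tmem74 (0.113), Zfp703 (0.0653), Ccser1 (0.108) and Ing2 (0.152). Ing2 was also not past the threshold without the WT 120 min array of experiment 1 (0.138). Calls held with each experiment left out for 6 of the 16 slower genes (Irx3, Dusp4, Mllt11, Socs5, Lonrf1 and Lmcd1) and 2 of the 10 faster ones (Dact1 and Hic1). With the replicate block, which hardly moves the slope differences, all 26 were called.

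Within sets of experiments, calls were made both in experiments 1 to 3 and in experiments 4 and 5 for Irx3, Socs5, Lmcd1, Rab9, Dact1 and Hic1. Besides Ier3, the genes called in 1 to 3 and not in 4 and 5 were Dusp4 (0.44, limma adjusted p = 0.585), Mllt11 (0.45, 0.431), Cish (0.27, 0.999), Cnksr3 (0.25, 0.45), Lonrf1 (0.29, 0.121) and Foxq1 (-0.16, 0.0796), each with its value in 4 and 5. Besides Smad1, those called in 4 and 5 and not in 1 to 3 were Tle4 (0.34, 0.105), Tiparp (-0.30, 0.316) and Tmem74 (-0.16, 0.089), each with its value in 1 to 3. Tmem74 had -0.43 in 4 and 5. Besides Maml1 and Dusp1, neither set gave a call for Ppp1r12b (0.46, 0.0537 and 0.24, 0.243), Hivep3 (0.36, 0.145 and 0.40, 0.32), Ppp1r12a (0.34, 0.176 and 0.30, 0.0787), Zfp703 (-0.27, 0.0559 and -0.22, 0.418), Cdk5r1 (-0.28, 0.0559 and -0.11, 0.999), Ccser1 (-0.19, 0.15 and -0.16, 0.18) or Ing2 (-0.19, 0.207 and -0.15, 0.433).

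The size of many differences depends on the background that a low signal holds. After background subtraction, values moved by over 1.5 times and stayed past the threshold for Irx3 (1.29), Dusp4 (0.89), Smad1 (0.79), Mllt11 (0.79), Lmcd1 (0.79), Cnksr3 (0.69), Lonrf1 (0.68), Tle4 (0.68), Maml1 (0.57) and Foxq1 (-0.88). They moved by as much and did not pass, besides Cish, for Ppp1r12b (0.62, adjusted p = 0.261), Hic1 (-0.54, 0.232), Tmem74 (-0.76, 0.0754), Zfp703 (-0.38, 0.862), Cdk5r1 (-0.34, 0.107), Ccser1 (-0.34, 0.0852) and Ing2 (-0.12, 1). Fitted from 60 to 120 min only, the difference was smaller by over 1.5 times and not past the threshold for Dusp4 (0.26, adjusted p = 0.203), Cish (0.27, 0.205) and Dusp1 (-0.36, 0.136), as for Ier3. In that window, which holds fewer arrays, the call stood for 1 of the 16 slower named genes (Irx3) and ended for 15. It stood for 1 of the 10 faster ones (Dact1) and ended for 9. From 0 to 120 min the difference was 0.23 for Hivep3, still past the threshold. Dusp1 (-0.57, adjusted p = 0.0822), Tmem74 (-0.16, 0.105) and Ing2 (-0.11, 0.0739) did not pass in that window.

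**Figure D5:**
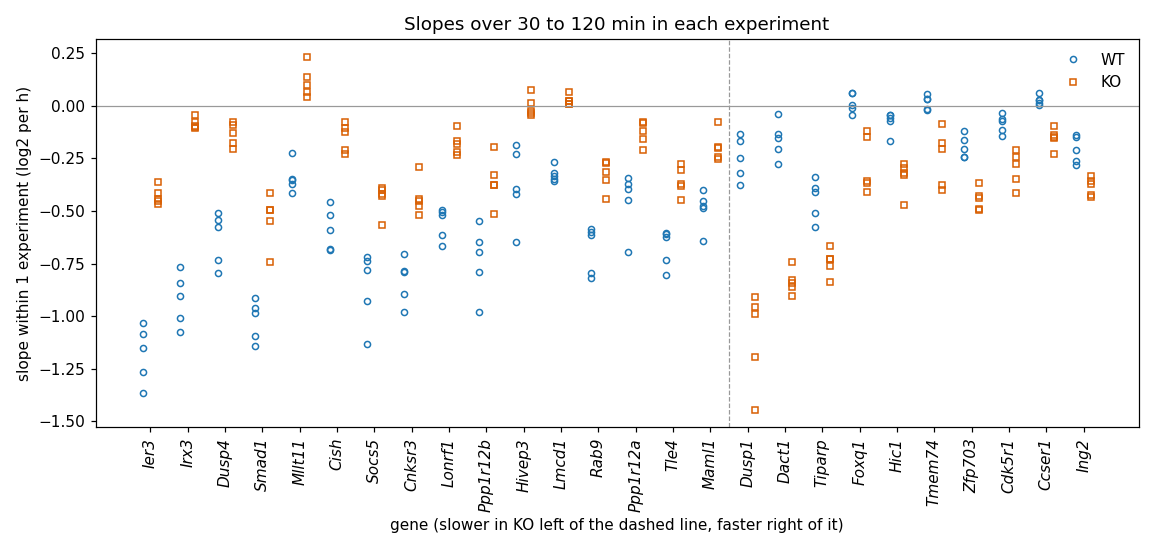
Slope over 30 to 120 min in log2 per h, fitted within each experiment, for the 16 slower and the 10 faster named genes (circles WT, squares KO, 5 experiments each). These genes were chosen by their slopes. The KO slopes lie above all WT slopes in each of the 16 and below all WT slopes in each of the 10.

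Over all probe sets, the 5 KO slopes of single experiments lay above all 5 WT slopes in 495 (1.1%) and below all in 300 (0.666%). Among the called genes they did so in 35 of the 36 slower and 13 of the 13 faster ones, which the choice by slope favours.

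Several genes were called by a probe set other than the one with the highest mean. Counting every probe set, the 48 slower ones cover 45 named genes and the 27 faster ones 24. Through another probe set, the regulators of differentiation Id2 (-0.40) and Id4 (-0.24), the NF-kappaB regulator Nfkbiz (-0.39) and the transcription factors Foxf1 (-0.34), Gli2 (-0.28), Tbx3 (-0.26) and Foxo3 (-0.19) were faster in KO. Fam13c (0.44), Suco (0.26), Fbxo30 (0.25) and the receptor adaptor Traf5 (0.23) were slower. Also called so were Cdt1 (-0.25), Nrip1 (-0.19), Sfswap (-0.27) and Etfbkmt (-0.089), all faster. Jade1 (0.20), Cntn3 (0.20), Ahctf1 (0.22), Wac (0.23) and Zfp618 (0.20) were slower. In each of these genes the probe set with the highest mean did not pass (adjusted p = 0.163 to 0.994), so that their probe sets disagree.

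Zfp36 itself had no slope difference past the threshold. Its log2 signal at 30 min was 8.68, 9.26, 8.80, 8.52 and 8.46 in WT and 8.69, 8.86, 8.64, 8.68 and 8.47 in KO, and it was at 8.17 ± 0.080 and 8.12 ± 0.039 by 120 min (SD, n = 5), at or near the floor in both lines. The difference was 0.011 ± 0.092 (SE; adjusted p = 0.997). Whether this probe set covers the deleted sequence is not stated in the labels, and its signal is no check of genotype. Its relatives Zfp36l1 and Zfp36l2, which also bind AU-rich elements, had differences of 0.035 ± 0.074 (SE; adjusted p = 0.994) and 0.26 ± 0.12 (SE; adjusted p = 0.98). The KO signal of Zfp36l1 was 1.32-fold that of WT at 30 min (adjusted p = 0.000281) and 1.41-fold at 120 min (adjusted p = 1.05e-05).

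Over all 18193 genes with a symbol, 36 were slower and 13 faster, 1683 fell in WT and 1257 in KO, 47.8% had a difference above 0, and the unadjusted p was under 0.05 in 3.37% with a difference above 0 and in 2.65% with one below 0. Counts in the gene lists that follow are given beside these shares.

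The reported TTP targets are mostly cytokines and immediate-early genes, and of 28 measured, 1 was slower (Ier3), 0 faster and 27 did not pass, against 36 and 13 of 18193 genes. The median difference of the list was 0.018, against -0.0025 over all 18193 genes. At an unadjusted limma p under 0.05, 4 (14.3%) had a difference above 0 and 1 (3.57%) below 0, against 3.37% and 2.65% of all genes. Of these 28 genes, 11 fell in WT and 8 in KO, against 1683 and 1257 of all genes, so that most had no fall to compare in this window. The chemokine Cxcl1 sloped by -0.22 in WT and by 0.014 in KO, a difference of 0.24 ± 0.069 (SE; adjusted p = 0.271), and was called with the replicate block. The cyclin kinase inhibitor Cdkn1a had 0.31 ± 0.11 (SE; adjusted p = 0.62) and the cytokine Lif 0.16 ± 0.14 (SE; adjusted p = 0.985). Fos (-0.19), Egr1 (-0.17), Myc (-0.15) and Vegfa (-0.13) had differences below 0, none past the threshold, and Tnf lay between 8.22 and 8.58 over all arrays, near the floor.

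Of 20 genes of feedback on MAP kinases and receptors, 3 were slower (Dusp4, Socs5 and Cish), 1 was faster (Dusp1) and 16 did not pass, with a median of 0.032. Over all 18193 genes, 36 were slower and 13 faster. At an unadjusted limma p under 0.05, 4 of the 20 (20%) had a difference above 0 and 5 (25%) below 0, against 3.37% and 2.65% of all genes. All 3 slower ones were lower and Dusp1 higher in KO at 30 min, where 5 of the 20 were lower and 6 higher. Errfi1, an inhibitor of the EGF receptor with a WT mean of 12.55 at 30 min, had a difference of 0.13 ± 0.079 (SE; adjusted p = 0.983), and Dusp5 and Dusp6 had -0.13 and -0.18. With the replicate block Spred2, an inhibitor of Ras to ERK signalling, was slower as well (0.28 ± 0.080, SE; adjusted p = 0.267 without the block).

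Of 24 genes of BMP and TGF-beta signalling, 1 was slower (Smad1), 0 faster by their probe sets with the highest mean, and 23 did not pass, with a median of 0.055. With the block, the inhibitory Smad6 was faster (-0.15 ± 0.043, SE; adjusted p = 0.271 without it). Smad3 and Smad5 had differences of 0.11 and 0.076. Among 17 genes of NF-kappaB feedback, 1 was slower (Ier3) by the probe sets with the highest mean, with a median of 0.048. Another probe set of Nfkbiz was called faster (-0.39). Nfkbia, the main inhibitor of NF-kappaB, sloped by -1.16 in WT and by -1.19 in KO (difference -0.027 ± 0.15, SE, adjusted p = 0.996). Among 12 survival genes, 1 was slower (Ier3 again), with a median of 0.087. Mcl1, an inhibitor of apoptosis with a short-lived message, had slopes of -1.03 and -0.72 (0.31 ± 0.092, SE; adjusted p = 0.315), and was called with the block. Shares with an unadjusted limma p under 0.05, above 0 and below 0, were 16.7% and 16.7% for the BMP and TGF-beta list. They were 17.6% and 11.8% for the NF-kappaB list and 25% and 8.33% for the survival list, against 3.37% and 2.65% of all genes.

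Of 34 immediate-early transcription factors, 28 fell in WT and 28 in KO, against 1683 and 1257 of all 18193 genes. By their probe sets with the highest mean, 0 were slower or faster at the threshold by limma. Another probe set of Id2 was called faster (-0.40). At an unadjusted p under 0.05, 5 (14.7%) had a difference above 0 and 6 (17.6%) below 0, against 3.37% and 2.65% of all genes, and with the block Cebpd was slower. With a block for each line, Cebpd was slower and Nr4a2, Klf2 and Id2 were faster. Their differences ran both ways: 0.47 ± 0.21 for Ier5, 0.38 ± 0.14 for Klf10, 0.34 ± 0.10 for Cebpd and 0.32 ± 0.11 for Cebpb, against -0.51 ± 0.17 for Nr4a1, -0.48 ± 0.15 for Csrnp1 and -0.26 ± 0.072 for Klf2 (SE). Nr4a1, Csrnp1 and Klf2 were higher in KO at 30 min, and Ier5 and Klf10 were lower. The slopes of Junb were -1.15 and -1.17. Of 29 cytokines, chemokines and growth factors, 0 were slower or faster, 5 (17.2%) had an unadjusted p under 0.05 with a difference above 0 and 1 (3.45%) below 0, against 3.37% and 2.65% of all genes, and with the block Cxcl1 and Vegfc were slower. The median of that list was 0.060, or 0.092 with the filter on low values and 0.10 after background subtraction.

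Of 21 p53 targets and growth arrest genes, 0 passed the threshold by limma (0 with the replicate block as well, and 3 with a block for each line: Mdm2, Cdkn1a and Phlda1), but 17 (81.0%) had a difference above 0, against 47.8% of all genes, and 12 (57.1%) had an unadjusted p under 0.05 in that direction, against 3.37% of all genes. The median difference was 0.14. Of the 21, 14 fell in WT and 10 in KO, against 1683 and 1257 of all 18193 genes. Among the 217 steeply falling probe sets described below, 71.0% had a difference above 0, a nearer comparison than all genes. Whether this list differs from other falling genes was not tested. Plk2, a polo-like kinase, had slopes of -1.24 and -0.75 (0.50 ± 0.14, SE; adjusted p = 0.222), and Phlda1 -1.23 and -0.92 (0.31 ± 0.085, SE; adjusted p = 0.222). Mdm2, which degrades p53, had 0.14 ± 0.042 (SE; adjusted p = 0.368), Btg1, an inhibitor of proliferation with the steepest fall of the list, 0.24 ± 0.11 (SE; adjusted p = 0.979), and Bbc3 -0.11 ± 0.044 (SE; adjusted p = 0.809). By experiment, the median of the list was 0.23, 0.22, 0.050, 0.048 and 0.075, highest in experiments 1 and 2.

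The list of mRNA decay factors, 28 measured, had 0 called, a median of 0.022 and 1 member with an unadjusted p under 0.05. Ribosomal proteins (27 measured, median 0.018), glycolysis (12, 0.026), fibroblast matrix and stroma (19, 0.020) and interferon-stimulated genes (15, 0.0093) had 0 called and 0 with an unadjusted p under 0.05. Serum response, cytoskeletal and matricellular genes (18, median 0.036) had 0 called and 1 under 0.05 above 0, and cell cycle genes (21, median 0.019) 0 called and 1 under 0.05 below 0. In WT and KO, 5 and 2 of the 28 mRNA decay factors fell, and 3 and 4 of the 15 interferon-stimulated genes. So did 3 and 3 of the 18 serum response genes and 2 and 1 of the 19 matrix genes. Of the 21 cell cycle genes, 1 and 2 fell. Of ribosomal proteins and glycolysis genes, 0 fell in either line. Over all 18193 genes, 1683 fell in WT and 1257 in KO.

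Of 217 probe sets whose mean slope over the lines was under -0.5, 154 (71.0%) had a difference above 0, against 45.1% of all probe sets. A steep fall in 1 line was enough to enter this set, which holds Irx3, with a KO slope of -0.085, and Dusp1, with a WT slope of -0.25. Their median slope was -0.70 in WT and -0.61 in KO, with a median difference of 0.087, and 10 were slower and 3 faster. This set was not alike in all experiments. Median slopes were -0.76 in WT and -0.57 in KO in experiment 1 and -0.78 and -0.63 in experiment 2. They were -0.67 and -0.68 in experiment 3, -0.64 and -0.64 in experiment 4 and -0.65 and -0.62 in experiment 5. The KO medians lay clearly above WT in experiments 1 and 2 and close to WT in the other 3, and the part of this in the calls was not tested.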

How the data were processed

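Total RNA was measured on 1-colour Affymetrix mouse genome arrays. The submitters' processing notes name GeneChip Operating Software 1.2.0.037. Values deposited by the authors were taken as log2 signals from their range. The log base, the scaling and the background treatment by the authors are not given in the sources used here. Medians of the arrays lay between 8.47 and 8.55. Of 45101 probe sets, 64 are controls and were dropped, and 45037 were tested with no filter on low values. Precision is limited by the number of arrays.

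Slopes were fitted with limma 3.58.1 in R 4.3.3 (lmFit, then eBayes with trend and robust), 1 intercept and 1 slope in hours per line over 39 arrays, with Benjamini-Hochberg adjustment over all 45037 probe sets and a threshold of 0.05, two-sided. A probe set was called slower when the difference was above 0 and the WT slope below 0, each past the threshold, and faster when the difference was below 0 and the KO slope below 0. Levels at 30 and 120 min, changes between successive times and the bend (the change from 90 to 120 min minus that from 30 to 60 min) came from a fit of group means. A halving time is the time for the fitted signal to drop by 1 log2, and equals the decay time of the message only where background is negligible. The sources pair 34945 probe sets with 1 symbol (18193 genes), 932 with several and 9160 with none; of the 34945, 34741 matched RefSeq. Each gene was read from its probe set with the highest mean.

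Genes were named by rule: Zfp36, Ier3, the 16 slower genes with the highest and the 10 faster genes with the lowest difference, and called members of the gene lists. The comparison, the genes and the lists were chosen with earlier results of these data known. The series text describes 5 experiments, each on its own day and with the lines run in parallel. The replicate number was taken as the experiment. Deviations of same-numbered WT and KO arrays from their group means correlated at 0.37, 0.24, 0.019, 0.31 and 0.58 for replicates 1 to 5, and the best match was the same number for replicates 2 and 5. Alternatives were the replicate block, a block for each line, a filter, other scalings, background subtraction (each array's 5th percentile, floor of 32), other time windows and left-out arrays. The script was tested on simulated data.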

Additional observations from a re-analysis of the deposited data

Results flagged for a closer look

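Among 54 sets of 5 slopes, 1 set per line for each named gene, 3 had an experiment far from the other 4, and chance gives about 1 in 20 such sets. The KO slope of Socs5 was -0.57 log2 per h in experiment 3, against -0.43 to -0.39 in the others. The WT slope of Hic1 was -0.17 in experiment 2, against -0.073 to -0.041. The KO slope of Hic1 was -0.47 in experiment 3, against -0.33 to -0.28.

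In 3 of the 26 genes named by rule as slower or faster, the slopes of all 5 experiments lay on opposite sides of 0 in the lines, and the difference itself passed the limma test: 0.46 for Mllt11, 0.35 for Lmcd1 and -0.18 for Ccser1. In these genes the slope above 0 did not pass its own test (adjusted p = 0.0753 for Mllt11 in KO, 0.841 for Lmcd1 in KO and 0.576 for Ccser1 in WT). Among the called genes named after their values were seen, Twist2 (WT -0.18 to -0.093, KO 0.0032 to 0.14) and Dmrta2 (WT -0.31 to -0.077, KO 0.0059 to 0.11) also had the slopes of their experiments on opposite sides of 0.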

How the results depend on the processing

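The counts depended on the arrays and the error model far more than on scaling. Median centring gave 48 slower and 26 faster probe sets, quantile normalization 47 and 22, plain eBayes 52 and 27, and the filter 63 and 30 of 26774. Like totals did not mean the same members. Of the 48 slower and 27 faster probe sets of the main fit, median centring kept 43 and 25. Quantile normalization kept 37 and 19, and background subtraction 27 and 10. With the replicate block, 139 were slower, 51 faster, 143 above 0 and 52 below 0, with 61 slower ones not lower and 1 faster one not higher in KO at 30 min. With a replicate block for each line, 328 were slower, 101 faster, 360 above 0 and 108 below 0. The shared replicate block ended none of the calls of the 26 slower or faster named genes, and it hardly moved their slope differences. Leaving out 1 experiment or 1 array that stands apart gave 10 to 101 slower, 11 to 46 faster, 10 to 102 above 0, 12 to 54 below 0, 2 to 36 slower ones not lower and 0 to 1 faster ones not higher at 30 min, and a Zfp36 difference of -0.043 to 0.054. These left-out single arrays were chosen after seeing the data. Background subtraction gave 16 faster, 17 below 0 and 27 slower ones not lower. From 60 to 120 min, with fewer arrays, 2 were slower, 5 faster, 2 above 0 and 6 below 0, with 1836 falling in WT and 682 in KO. From 0 to 120 min, 169 were slower, 67 faster, 181 above 0 and 72 below 0, with 3521 falling in KO, 73 slower ones not lower and 7 faster ones not higher. Experiments 1 to 3 gave 21 slower, 13 faster, 22 above 0, 13 below 0 and 7 slower ones not lower, and experiments 4 and 5 gave 7 of the last. The Zfp36 difference was -0.083 from 60 to 120 min and -0.099 in experiments 4 and 5. The causes of these changes were not tested. Signals near the floor of 8.13 limit what can be read from the slopes of Irx3, Hivep3, Lmcd1, Dact1 and most other faster genes.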
